A study of Mus musculus with 6 samples.

Results

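The genes described here encode fibroblast growth factors (FGFs), their receptors and their feedback inhibitors in the mouse spinal cord. They are the secreted ligands Fgf1, Fgf2 and Fgf9, the FGF homologous factor Fgf13, the receptor tyrosine kinases Fgfr1, Fgfr2 and Fgfr3, the receptor without a kinase domain Fgfrl1, and the Sprouty genes Spry2 and Spry4. The members were chosen by gene symbol, matched to the Ensembl identifiers of the tables. All 10 were found among 35275 genes, and all 10 passed edgeR's filter on low counts, which kept 16137 genes for testing.

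Poly(A) RNA of whole spinal cord was sequenced to compare mice lacking Sox2 in astrocytes (Sox2 cKO) with control mice (Ctrl), with 3 libraries in each group, each from a different mouse. Sox2 cKO mice had the genotype mGfap-Cre:Sox2fl/fl, in which Cre recombinase under the mouse Gfap promoter recombines the floxed Sox2 allele mainly in astrocytes. The labels give Ctrl mice as mGfap-Cre:Sox2+/+, whereas the study's methods describe Sox2fl/fl littermates without Cre, so whether the controls carried Cre is not settled. All mice were of the C57BL/6 strain, and the age is 90 days in the sample characteristics but 80 days in the extraction protocol. All samples had an RNA integrity number above 6.8 by their labels. The study's methods give a higher minimum. Females and a male made up each group in the same proportion, by the study's methods. Libraries are called by the numbers of their columns, 2, 4 and 6 for Ctrl and 1, 3 and 5 for Sox2 cKO, because which replicate or sex each number stands for is not stated. Values of the 6 libraries are given in that order, Ctrl before Sox2 cKO. Totals of 22444930, 25015776 and 21983098 reads were counted on genes in Ctrl and 21507911, 28392184 and 26166638 in Sox2 cKO, so the groups overlapped in depth.

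FGFs are secreted proteins that bind receptor tyrosine kinases together with heparan sulfate, and the activated receptors signal through the adaptor FRS2 to the RAS and ERK cascade. Active ERK raises transcription of inhibitors such as the Sprouty genes, which dampen the signal in turn. In the central nervous system, Fgfr3 is enriched in astrocytes and Fgfr2 in oligodendrocytes, and FGF signals take part in gliogenesis, myelination and the response to injury.

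Sox2, the deleted gene, was examined first as a check of the knockout. Sox2 (ENSMUSG00000074637) had 19.9, 14.8 and 29.5 CPM (counts relative to the TMM-scaled library total) in Ctrl and 3.16, 2.69 and 2.98 CPM in Sox2 cKO. All Sox2 cKO libraries lay far below the Ctrl range, and Ctrl library 6 was the highest. The log2 fold change of Sox2 in Sox2 cKO against Ctrl was -2.86 (standard error 0.24, n = 3 in each group, edgeR quasi-likelihood test, Benjamini-Hochberg adjusted p = 0.000956), which is 13.8% of the Ctrl level. In bulk tissue, fewer cells of a type and less RNA in each cell cannot be told apart.

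Among the 10 FGF genes, Fgf2 and Spry2 fell in Sox2 cKO spinal cord. These 2 of 10 genes had an adjusted p below 0.05 in edgeR, against 24.6% of all tested genes, so the share among the FGF genes was near the background. DESeq2 called the same 2 genes, also lower, against 27.7% of all genes with an adjusted p, where 2345 of 15635 were called lower. Both were lower, where 12.4% of all tested genes were called lower. In 3 of the 10 genes (Fgf1, Fgf2 and Spry2) the CPM ranges did not overlap between groups, against 44.7% of all tested genes, and these 3 were lower in Sox2 cKO, against 22.1%. The median log2 fold change was -0.07 over the 10 genes and 0.02 over all tested genes. The other 8 genes had 95% confidence intervals of the log2 fold change that lay between -0.33 and 0.40, so a larger change of any of them is outside its interval. The median standard error was 0.09 over the 10 genes and 0.12 over all tested genes.

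**Figure D1:**
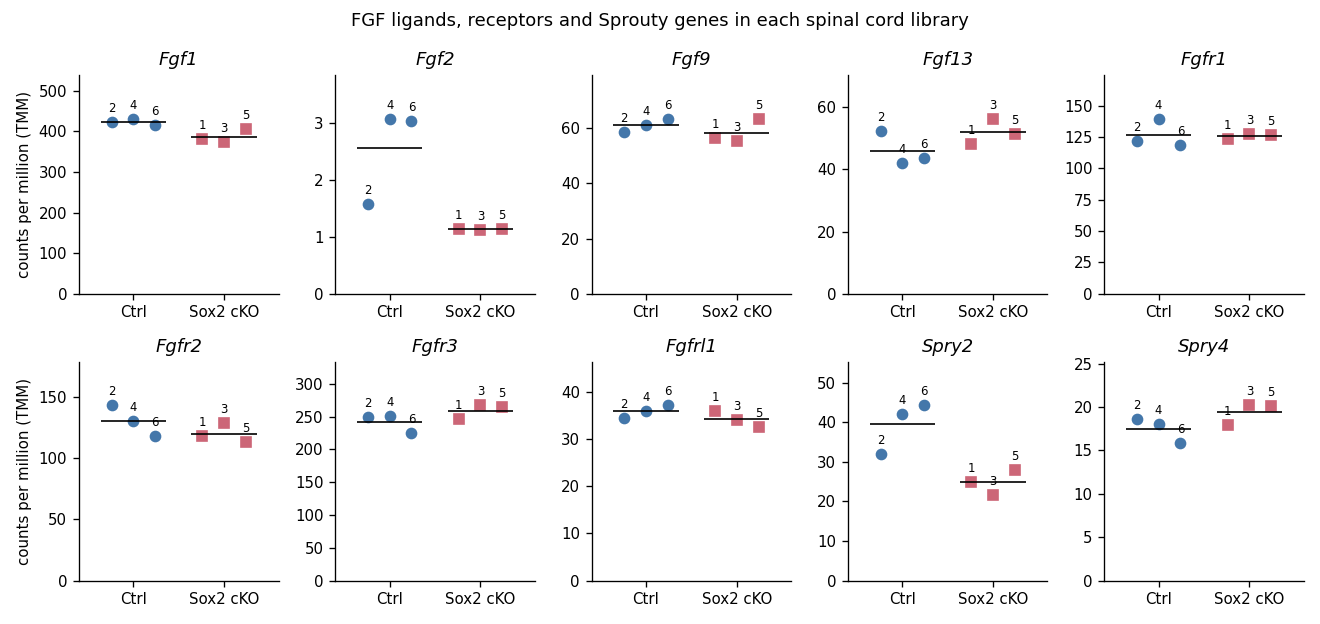
TMM-scaled CPM (vertical axes, from 0) of each of the 10 FGF genes in Ctrl (circles) and Sox2 cKO (squares) libraries, with library numbers above the points and black lines at the group means (n = 3). Fgf2 and Spry2 have all Sox2 cKO libraries below all Ctrl libraries, Fgf1 does too by a small margin (406 against 417 CPM), and the groups of the other 7 genes overlap.

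Fgf1 was the most abundant of the 10 genes, and of the secreted ligands. It encodes acidic FGF, which is made without a signal peptide and binds all FGF receptors. Fgf1 (ENSMUSG00000036585, chromosome 18 of mm10, 38838673 to 38929472) had 424, 432 and 417 CPM in Ctrl and 381, 374 and 406 CPM in Sox2 cKO. All Sox2 cKO libraries lay below the Ctrl range, with library 5 of Sox2 cKO closest to the Ctrl range. The log2 fold change of Fgf1 was -0.13 (95% confidence interval -0.31 to 0.04, edgeR adjusted p = 0.234), which did not pass the test. It was nearer to 0 after the length correction (-0.08) and with limma on log2(FPKM + 1) (-0.03).

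Fgf2, basic FGF, is a mitogen of neural stem cells and glia and lacks a signal peptide like Fgf1. It was the least abundant of the 10 genes. Fgf2 (ENSMUSG00000037225, chromosome 3, 37348346 to 37410108) had 35, 74 and 63 counts in Ctrl and 26, 33 and 30 counts in Sox2 cKO. On the CPM scale these were 1.57, 3.08 and 3.04 in Ctrl and 1.14, 1.13 and 1.13 in Sox2 cKO. The Sox2 cKO libraries lay close together, Ctrl libraries 4 and 6 were high, and Ctrl library 2 stood nearer to Sox2 cKO than to the other Ctrl libraries. The log2 fold change of Fgf2 was -1.17 (standard error 0.29, 95% confidence interval -1.82 to -0.53, n = 3 in each group, edgeR adjusted p = 0.0208), or 44.3% of Ctrl. DESeq2 gave -1.19 with an adjusted p of 0.00713. With limma on log2(FPKM + 1) the log2 fold change of Fgf2 was -0.59 (adjusted p = 0.0338).

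The call of Fgf2 depended on single libraries. In edgeR it was lost without Ctrl library 4 (adjusted p = 0.0959), Ctrl library 6 (0.0715), Sox2 cKO library 1 (0.0790) or Sox2 cKO library 3 (0.0640), with log2 fold changes between -1.43 and -1.02 over the 6 fits that each left out a library. It was kept without Ctrl library 2 (edgeR adjusted p = 0.00190) and without Sox2 cKO library 5 (0.0484). DESeq2 gave Fgf2 no adjusted p without Ctrl library 4, Ctrl library 6 or Sox2 cKO library 3, and called it in the other 3 such fits, without Ctrl library 2 (adjusted p = 0.000873), Sox2 cKO library 1 (0.0383) or Sox2 cKO library 5 (0.0340). Fewer genes passed in general in those edgeR fits. Over all tested genes, 26 were called without Ctrl library 4, 1082 without Ctrl library 6, 8 without Sox2 cKO library 1 and 1359 without Sox2 cKO library 3. With all 6 libraries 3970 were called. DESeq2 called 1981, 2290, 2342 and 2729 genes without the same libraries, in that order.

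The gene model limits how Fgf2 can be read. The length behind its FPKM values was 1240 bases, while the longest Fgf2 transcript of the annotation has 5973 bases. Exons of Fgf2 share 640 bases with Nudt6, a gene on the opposite strand, and the library kit keeps the strand of the RNA, but it is not stated if reads were counted by strand. Nudt6 had 2.24, 2.41 and 3.19 CPM in Ctrl and 2.55, 2.18 and 3.32 CPM in Sox2 cKO. The groups overlapped for Nudt6, and its part in the Fgf2 counts was not tested.

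Fgf9 encodes a secreted ligand made by neurons and glia that acts mainly through Fgfr3 and Fgfr2. Fgf9 (ENSMUSG00000021974, chromosome 14, 58070547 to 58112720) had 58.7, 61.3 and 63.5 CPM in Ctrl and 56.4, 55.3 and 63.3 CPM in Sox2 cKO. Sox2 cKO library 5 lay inside the Ctrl range and the other Sox2 cKO libraries just under it. Fgf9 had a log2 fold change of -0.07 (95% confidence interval -0.25 to 0.11, edgeR adjusted p = 0.557), whose sign turned with limma on FPKM values (0.03). In edgeR it was -0.13 without Sox2 cKO library 5 and -0.03 without Sox2 cKO library 3.

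Fgf13 belongs to the FGF homologous factors, which stay inside the cell, do not activate FGF receptors and bind voltage-gated sodium channels. Fgf13 (ENSMUSG00000031137, chromosome X, 59062145 to 59568071) had 52.2, 42.1 and 43.6 CPM in Ctrl and 48.2, 56.3 and 51.3 CPM in Sox2 cKO. Ctrl library 2 was the high Ctrl library and lay inside the Sox2 cKO range. Fgf13 had a log2 fold change of 0.18 (95% confidence interval -0.05 to 0.40, edgeR adjusted p = 0.223). Without Ctrl library 2 it was 0.28 and passed the test (edgeR adjusted p = 0.0304), while over the other 5 fits that left out a library it did not. It was 0.12 without Ctrl library 4 and 0.12 without Sox2 cKO library 3 (edgeR), 0.08 after the length correction (adjusted p = 0.573) and 0.28 with limma on log2(FPKM + 0.1). With all libraries, 0 of the 4 homologous factors were called in edgeR, against 24.6% of all tested genes. DESeq2 also called 0, against 27.7% of all genes with an adjusted p. An unadjusted p below 0.05 was found for 0 of the factors in edgeR and 1 in DESeq2. The most abundant of them, Fgf12, had a log2 fold change of -0.22 (edgeR adjusted p = 0.148). It was -0.13 with limma on log2(FPKM + 1), -0.12 without Sox2 cKO library 1 and -0.32 without Sox2 cKO library 5 (edgeR adjusted p = 0.0674), where DESeq2 called it (-0.34, adjusted p = 0.0280).

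Fgf13 was also set beside a neuronal gene. The log2 ratio of Fgf13 to the synaptic gene Snap25 was -5.63, -5.51 and -5.42 in Ctrl and -5.76, -5.65 and -5.70 in Sox2 cKO. The groups did not overlap in this ratio. Snap25 itself had a larger log2 fold change than Fgf13, 0.35 (edgeR adjusted p = 0.0619, DESeq2 0.0236). The genes differ in length, and after the length correction their log2 fold changes were further apart, 0.08 for Fgf13 and 0.48 for Snap25. The difference of -0.19 reached the smallest p that 20 arrangements of 3 against 3 libraries allow (exact two-sided permutation test, p = 0.1), in a ratio chosen after values were seen.

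The receptor genes gave no call in Sox2 cKO. The list of FGF receptors and co-receptors had 6 of 7 genes tested, of which 0 were called by edgeR or DESeq2. Of all tested genes, edgeR called 24.6%, and DESeq2 called 27.7% of those with an adjusted p. An unadjusted p below 0.05 was found for 0 of the 6 in either. The median log2 fold change of the 6 was 0.04, against 0.02 over all tested genes.

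Fgfr1 encodes a receptor found in neurons and the oligodendrocyte lineage. Fgfr1 (ENSMUSG00000031565, chromosome 8, 25513654 to 25575718) had 122, 139.6 and 118 CPM in Ctrl and 123, 127 and 126 CPM in Sox2 cKO. The Sox2 cKO libraries lay within the Ctrl range. The log2 fold change of Fgfr1 was -0.01 (95% confidence interval -0.20 to 0.18, edgeR adjusted p = 0.937), and its sign turned with upper quartile normalization (0.03), limma on FPKM values (0.09) and the length correction (0.13).

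Fgfr2, which marks oligodendrocytes here, had 143, 130.3 and 118 CPM in Ctrl and 118, 129 and 113 CPM in Sox2 cKO (ENSMUSG00000030849, chromosome 7, 130162451 to 133123350). Ctrl library 2 was the highest, and the groups overlapped. Its log2 fold change was -0.12 (95% confidence interval -0.33 to 0.09, edgeR adjusted p = 0.357). It was nearer to 0 after the length correction (-0.03), with limma on log2(FPKM + 1) (-0.02) and without Ctrl library 2 (-0.05), and further from 0 without Ctrl library 6 (-0.19). The annotated span of Fgfr2 is long because a readthrough transcript joins it to Ctbp2, with which it shares 314 exon bases.

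Fgfr3, the astrocyte-enriched receptor, had 250.3, 251 and 225 CPM in Ctrl and 246, 267 and 265 CPM in Sox2 cKO (ENSMUSG00000054252, chromosome 5, 33721674 to 33737068). Ctrl library 6 was low and Sox2 cKO libraries 3 and 5 were high, and the groups overlapped. For Fgfr3 the log2 fold change was 0.10 (95% confidence interval -0.09 to 0.28, edgeR adjusted p = 0.405). It was 0.05 without Ctrl library 6 (edgeR), 0.17 after the length correction and 0.19 with limma on log2(FPKM + 1).

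Fgfrl1 encodes a receptor that binds FGFs but has no tyrosine kinase domain. Fgfrl1 (ENSMUSG00000008090, chromosome 5, 108692382 to 108706924) had 34.5, 36.0 and 37.2 CPM in Ctrl and 36.1, 34.0 and 32.6 CPM in Sox2 cKO. The groups overlapped, and the lowest library was Sox2 cKO 5. Its log2 fold change was -0.07 (95% confidence interval -0.25 to 0.11, edgeR adjusted p = 0.564), with a turned sign in limma on FPKM values (0.03). It was -0.15 after the length correction, and in edgeR -0.11 without Sox2 cKO library 1 and -0.04 without Sox2 cKO library 5.

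The receptor genes Fgfr2, Fgfr3 and Fgfrl1 are each the nearest gene of a site where SOX2 was bound in chromatin of adult mouse cerebral cortex, in the study's list of the sites of highest enrichment. Sites of that list were sought for the FGF genes other than Fgf1 and Spry4, so whether these 2 genes have a listed site was not tested. The sequences at the sites found are shown. They come from that list, are given on the strand named (mm10), and the capitals mark the listed binding sequence of 11 bases.
Fgfr2 site: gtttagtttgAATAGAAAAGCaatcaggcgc
Fgfr3 site: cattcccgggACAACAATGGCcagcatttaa
Fgfrl1 site: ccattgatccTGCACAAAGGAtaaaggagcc
The Fgfr2 sequence is at chr7:130264745-130264775 on the minus strand, inside Fgfr2 and 2033 bases after its RefSeq transcription start, in an exon of the retained-intron transcript Fgfr2-227. The Fgfr3 sequence is at chr5:33705384-33705414 on the plus strand, in no annotated gene, 16340 bases before the start of Fgfr3. The Fgfrl1 sequence is at chr5:108697506-108697536 on the minus strand, in an intron of Fgfrl1, 3277 bases after its start. The capitals of the Fgfr3 site hold the letters ACAATG and those of the Fgfrl1 site the letters ACAAAG, both forms of the short SOX motif, and the Fgfr2 site holds neither. None of Fgfr2, Fgfr3 and Fgfrl1 was called in edgeR, where 24.6% of all tested genes were called. Neither Fgf2 nor Spry2 was the nearest gene of a listed site. Sites of lower enrichment are not in the list.

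Ratios of a pair of receptor genes within each library do not depend on how libraries are scaled. The log2 ratio of Fgfr3 to Fgfr2 counts was 0.81, 0.95 and 0.93 in Ctrl and 1.06, 1.05 and 1.23 in Sox2 cKO. Every Sox2 cKO library was above every Ctrl library, with a difference of 0.22 (exact two-sided permutation test, p = 0.1, the smallest the design allows, adjusted p = 0.225 over 9 ratios). The ratios of Fgfr3 to Fgfr1 (difference 0.11), Fgfr2 to Fgfr1 (-0.11) and Fgfrl1 to Fgfr1 (-0.06) overlapped between groups, with exact permutation p of 0.2, 0.5 and 0.6. Single libraries moved these small differences. Over the 6 sets that each left out a library they were 0.06 to 0.16 for Fgfr3 to Fgfr1, with the lowest without Ctrl library 4. For Fgfr2 to Fgfr1 they were -0.18 to -0.02, with -0.02 without Ctrl library 2, -0.07 without Sox2 cKO library 5 and -0.18 without Ctrl library 4. For Fgfrl1 to Fgfr1 they were -0.13 without Ctrl library 4, -0.12 without Sox2 cKO library 1, -0.02 without Sox2 cKO library 5 and 0.01 without Ctrl library 6, where the sign turned.

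Fgfr3 was also set against 2 astrocyte genes, Aldh1l1, a folate enzyme, and Slc1a3, the glutamate transporter GLAST. Fgfr3 to Aldh1l1 had log2 ratios of 1.80, 1.52 and 1.36 in Ctrl and 2.002, 2.16 and 1.92 in Sox2 cKO. Fgfr3 to Slc1a3 had log2 ratios of 1.36, 1.54 and 0.96 in Ctrl, and 1.80, 1.73 and 1.89 in Sox2 cKO. In both ratios every Sox2 cKO library was above every Ctrl library. The differences were 0.47 and 0.52 (exact two-sided permutation test, p = 0.1 each, adjusted p = 0.225 over 9 ratios). Aldh1l1 and Slc1a3 themselves fell, by 0.37 and 0.43 on the log2 scale (edgeR adjusted p = 0.0266 and 0.0227). After the length correction they were -0.30 and -0.33 and just missed the threshold (adjusted p = 0.0510 and 0.0565), and neither was called with limma. The ratios depend on the astrocyte gene chosen, since S100b rose by 0.71 on the log2 scale and Gjb6 had a log2 fold change of 0.03, and no ratio to these was made. With a library left out, Aldh1l1 kept its call in edgeR only without Ctrl library 2 (adjusted p = 0.00237) or Sox2 cKO library 5 (0.0335), and Slc1a3 only without Ctrl library 2 (0.0176) or Sox2 cKO library 3 (0.0491).

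**Figure D2:**
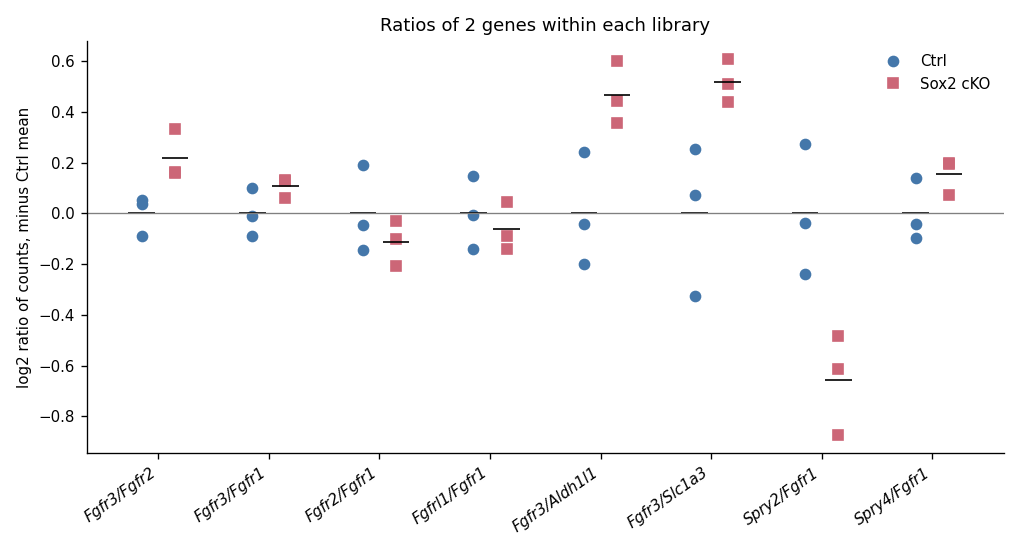
Log2 ratio of the counts of 2 genes in each library, minus the Ctrl mean of that ratio (vertical axis), for 8 of the 9 ratios in Ctrl (circles) and Sox2 cKO (squares), with lines at the group means (n = 3). The groups do not overlap in 4 ratios, with differences of 0.22 for Fgfr3/Fgfr2, 0.47 for Fgfr3/Aldh1l1, 0.52 for Fgfr3/Slc1a3 and -0.66 for Spry2/Fgfr1.

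Spry2 encodes a Sprouty protein, an inhibitor of receptor tyrosine kinase signaling whose own transcription is raised by that signaling. Spry2 (ENSMUSG00000022114, chromosome 14, 105891947 to 105896819) had 32.0, 42.2 and 44.3 CPM in Ctrl and 24.9, 21.6 and 28.0 CPM in Sox2 cKO. The Sox2 cKO libraries all lay below Ctrl, and Ctrl library 2 was the lowest of Ctrl. For Spry2 the log2 fold change was -0.67 (standard error 0.14, 95% confidence interval -0.98 to -0.37, n = 3 in each group, edgeR adjusted p = 0.0137), to 62.8% of Ctrl. DESeq2 gave -0.68 with an adjusted p of 0.000134. In edgeR the call was lost without Ctrl library 4 (adjusted p = 0.0689) or without Sox2 cKO library 1 (0.0667), and it was kept in the other 4 such edgeR fits and in all 6 such DESeq2 fits. The log2 fold change of Spry2 lay between -0.82 and -0.58 over these 12 fits. Relative to Fgfr1, the log2 ratio of Spry2 was -1.93, -1.73 and -1.42 in Ctrl and -2.30, -2.56 and -2.17 in Sox2 cKO. The groups did not overlap, with a difference of -0.66 (exact two-sided permutation test, p = 0.1, adjusted p = 0.225 over 9 ratios).

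The 250 bases before the RefSeq transcription start of Spry2 are shown because Spry2 is the called gene with the higher counts and no exon of another gene in this window. The window is chr14:105896820-105897069 of GRCm38, on the minus strand, with a GC content of 62.4%. The capitals mark CTTTGT, the reverse complement of the SOX motif ACAAAG.
Spry2 promoter: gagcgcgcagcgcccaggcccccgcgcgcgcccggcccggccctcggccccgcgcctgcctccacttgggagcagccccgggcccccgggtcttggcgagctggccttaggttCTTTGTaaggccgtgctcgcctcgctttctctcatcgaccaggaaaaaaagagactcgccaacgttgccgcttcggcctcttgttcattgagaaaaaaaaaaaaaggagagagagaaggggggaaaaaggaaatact
The match starts at base -137 from the transcription start. Of 32851 RefSeq promoters, 16.46% hold ACAAAG on either strand in the 250 bases before the start and 10.69% hold ACAATG, which has no match in this window. With 50 bases after the start included, 18.71% of promoters hold ACAAAG. In these longer windows, 3 of the 7 FGF genes with a RefSeq promoter entry had a match to ACAAAG (Spry2, Fgf13 and Fgfrl1). Of these, Fgf13 had it in 1 of 4 alternative promoters, and 0 of 7 had a match to ACAATG. The 7 genes have 11 promoter windows, and the shares of all promoters count windows, not genes. A match describes letters only and does not show that SOX2 binds there.

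Spry4 (ENSMUSG00000024427, chromosome 18, 38586247 to 38601415) encodes a related Sprouty inhibitor. It had 18.6, 18.0 and 15.9 CPM in Ctrl and 17.9, 20.2 and 20.1 CPM in Sox2 cKO. Ctrl library 6 was the lowest, Sox2 cKO libraries 3 and 5 were the highest, and the groups overlapped. For Spry4 the log2 fold change was 0.15 (95% confidence interval -0.08 to 0.38, edgeR adjusted p = 0.308). It was 0.09 without Ctrl library 6 (edgeR) and 0.25 after the length correction. The intervals of Spry2 and Spry4 did not overlap. The log2 ratio of Spry2 to Spry4, chosen after values were seen, was 0.79, 1.22 and 1.48 in Ctrl and 0.47, 0.09 and 0.48 in Sox2 cKO. The groups did not overlap in this ratio, with a difference of -0.81 (exact two-sided permutation test, p = 0.1).

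Likewise, the ligands Fgf2 and Fgf1 were compared within libraries after values were seen. The log2 ratio of Fgf2 to Fgf1 was -8.06, -7.12 and -7.09 in Ctrl and -8.36, -8.35 and -8.46 in Sox2 cKO. Ctrl library 2 was again the Ctrl library closest to Sox2 cKO, and the groups did not overlap (difference -0.97, exact two-sided permutation test, p = 0.1).

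**Figure D3:**
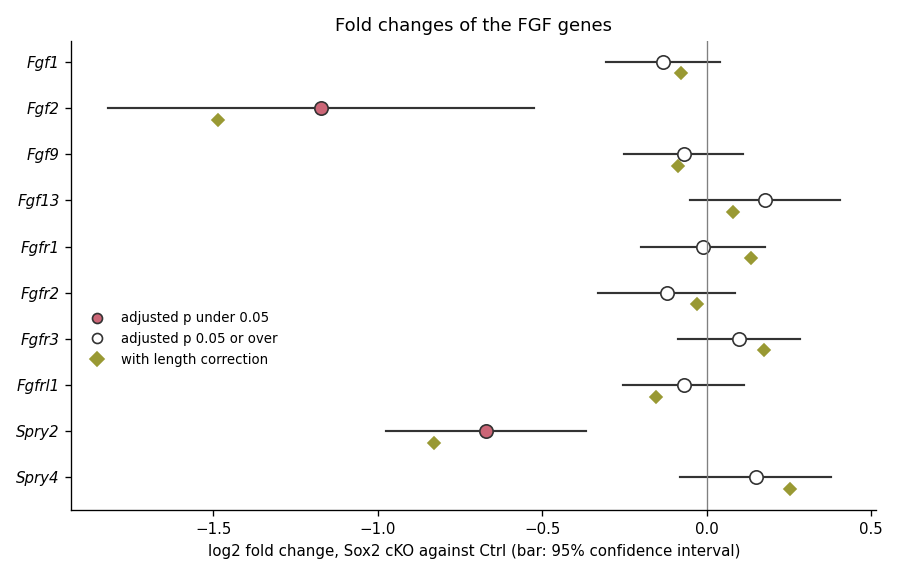
Log2 fold change of each FGF gene in Sox2 cKO against Ctrl (horizontal axis) with its 95% confidence interval from edgeR (bars), filled where the adjusted p was below 0.05, and the fold change after the length correction (diamonds). Fgf2 (-1.17) and Spry2 (-0.67) have intervals below 0, and the other 8 intervals include 0.

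Per length of gene, the levels of the 10 genes spanned a wide range. Mean FPKM over the 6 libraries was 102 for Fgf1, 59.2 for Fgfr3, 28.3 for Fgfr2, 25.0 for Fgfr1, 19.6 for Fgf13 and 18.6 for Fgf9. It was 15.3 for Spry2, 13.2 for Fgfrl1, 4.03 for Spry4 and 1.47 for Fgf2. The order of some neighbours differed by group. In Ctrl, Fgf9 (mean 18.4) and Spry2 (18.2) were above Fgf13 (17.8). In Sox2 cKO, Spry2 (12.3) was below Fgfrl1 (13.3). Fgf1 was above Fgfr3, and Fgfr3 above Fgfr2, in ranges that did not overlap, as was Fgfrl1 above Spry4 and Spry4 above Fgf2. The ranges of neighbours from Fgfr2 down to Fgfrl1 overlapped, although Fgfr2 was above Fgfr1, and Fgfr1 above Fgf13, in each of the 6 libraries. Among all tested genes, 96.5% had a lower mean FPKM than Fgf1, 93.5% a lower one than Fgfr3 and 23.4% a lower one than Fgf2.

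Fold changes in these data followed gene length, so the members were read against genes of like length. When tested genes were divided by length into 20 bins, the median log2 fold change went from 0.35 in the shortest bin (median 641 bases) to -0.36 in the longest (median 9460 bases). Fgf2, at the 1240 bases behind its FPKM values, and Spry2, at 2085 bases, were in bins with medians of 0.29 and 0.16, from which they differed by -1.47 and -0.83 in log2 fold change. At the 5973 bases of its longest transcript, Fgf2 would be in a bin with a median of -0.20, a difference of -0.97. Of the longer members, Spry4 (0.26), Fgfr3 (0.18) and Fgfr1 (0.16) were above the median of their bin, and Fgfr2 (-0.04) and Fgf1 (-0.08) were below it. With a correction for the trend with length in each library, edgeR called 13.1% of tested genes, and again 2 of the 10 FGF genes. These were Fgf2 (log2 fold change -1.49, adjusted p = 0.0233) and Spry2 (-0.83, adjusted p = 0.0187), where the value of Fgf2 rests on 1240 bases as its length. The comparison with bins was chosen after values were seen.

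**Figure D4:**
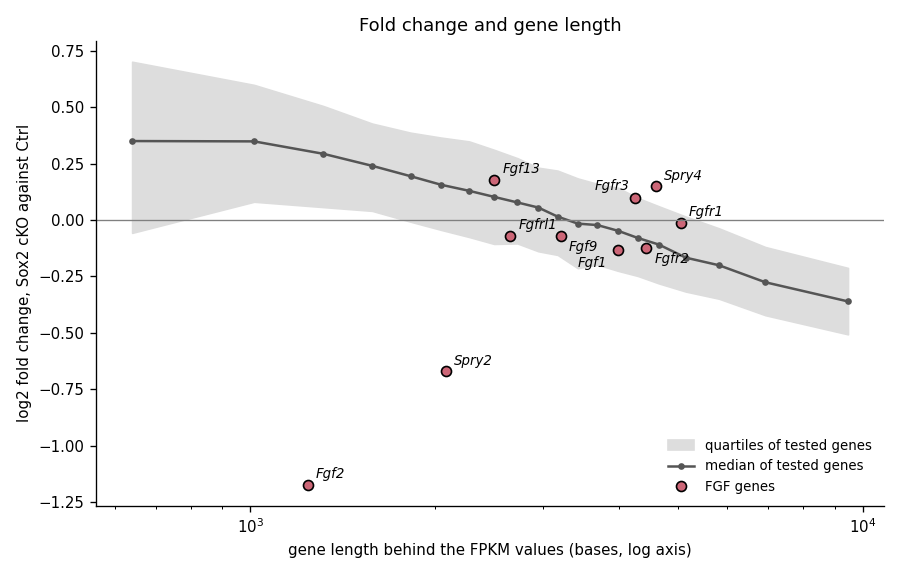
Log2 fold change in Sox2 cKO against Ctrl (vertical axis) over gene length in bases (log axis), with the median (line) and quartiles (grey band) of 20 bins of tested genes and the 10 FGF genes as red points. Medians run from 0.35 to -0.36. Fgf2 and Spry2 are the only points below the band, at differences of -1.47 and -0.83 from their bin medians with the lengths behind the FPKM values. Spry4 (0.15) lies above the band, whose upper quartile is 0.06 in its bin, and Fgfr3 (0.10) is at the upper edge.

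The rest of the pathway was taken from 6 lists of 87 genes that include the members, of which 86 were in the tables. Of 76 tested, 11 fell and 2 rose in edgeR, or 13 genes, where 12.4% of all tested genes were called lower and 12.2% higher. DESeq2 called 17 pathway genes lower and 2 higher, where 27.7% of all genes with an adjusted p were called and 2345 of 15635 were lower. The median log2 fold change of the 76 tested pathway genes was -0.10, against 0.02 over all tested genes. After the length correction these medians were -0.04 and 0.001, so the pathway median was nearer to 0. Among 18 secreted ligands, 9 were tested and 1, Fgf2, was called, with a median of -0.07 over the 9. Fgf6 and Fgf20 had 0 counts in every library.

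In the adaptors and ERK cascade, 4 of 19 tested genes fell and 2 rose in edgeR, against 12.4% and 12.2% of all tested genes. In DESeq2, 6 fell and 2 rose, where 27.7% of all genes with an adjusted p were called and 2345 of 15635 were lower. The median log2 fold change of the list was 0.05. Braf, a RAF kinase, fell by 0.57, the docking protein Gab1 by 0.51, the GTPase Nras by 0.44 and the FGF receptor adaptor Frs2 by 0.38 on the log2 scale (edgeR adjusted p = 0.0159, 0.0125, 0.0139 and 0.0432). Frs2 groups overlapped in CPM. Another RAF kinase, Araf, rose by 0.30 and the phospholipase Plcg1 by 0.26 (edgeR adjusted p = 0.0460 and 0.0335).

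Among feedback inhibitors and ERK targets, 2 of 13 tested genes fell, near the 12.4% of all tested genes called lower. These were Spry2 and Spred1 (-0.32, edgeR adjusted p = 0.0473), an inhibitor of RAS signaling. The median of the list was -0.11, and -0.03 after the length correction. The ERK phosphatase gene Dusp6 (0.25, edgeR adjusted p = 0.162) and the ETS factors Etv4 (0.34, adjusted p = 0.0656) and Etv5 (-0.13, adjusted p = 0.214), named after their values were seen, were not called. These common readouts of FGF signaling had fold changes of both signs. Etv4 passed the test with limma on log2(FPKM + 1) and log2(FPKM + 0.1) (adjusted p = 0.0385 and 0.0390) and without Ctrl library 2 (edgeR adjusted p = 0.0455).

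Heparan sulfate cofactors had the lowest median of the 6 lists, -0.20, and -0.14 after the length correction. In edgeR 4 of the 25 genes were called, these 4 lower, against 12.4% of all tested genes called lower. DESeq2 called 8 of them, also lower, against 2345 of the 15635 genes with an adjusted p. The 4 called in edgeR were Ndst1, which starts sulfation of the chains (-0.72, edgeR adjusted p = 0.0128), the sulfatase Sulf2 (-0.38, 0.0202), the sulfotransferase Hs6st1 (-0.30, 0.0231) and the chain polymerase Ext1 (-0.29, 0.0376). The summed CPM of the list was 1454, 1731 and 1729 in Ctrl and 1273, 1344 and 1422 in Sox2 cKO. The groups did not overlap in this sum. Nor did they in the sums of the secreted ligands, the adaptors and ERK cascade, the feedback inhibitors and the whole pathway, which were also lower. Of single tested genes, 44.7% did not overlap between groups, and 22.1% were lower without overlap. No such share was made for sums, and the sums were not corrected for length. The adaptors and ERK cascade had a lower sum although the median log2 fold change of the list was 0.05. Most of the ligand sum is Fgf1.

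Some of these pathway calls changed with the length correction or without a library. After the length correction, 8 of the 13 genes kept their call (Fgf2, Spry2, Gab1, Nras, Ndst1, Sulf2, Hs6st1 and Plcg1), and Hs6st3 was called as well (-0.81, adjusted p = 0.0406), so 8 genes were lower and 1 was higher. Of all tested genes, 13.1% were called in that fit. Plcg1 then had a log2 fold change of 0.41. The calls of Braf (-0.20), Frs2 (-0.19), Spred1 (-0.10), Araf (0.24) and Ext1 were lost (adjusted p = 0.0766, 0.191, 0.339, 0.0643 and 0.999). With limma on either FPKM scale, Frs2, Spred1, Hs6st1 and Ext1 were not called, and with upper quartile normalization Frs2, Spred1 and Ext1 were not. Ext1 was not called without the filter on low counts either. With all 6 libraries edgeR called 13 pathway genes, and it called 33 without Ctrl library 2, 4 without Ctrl library 6 and 6 without Sox2 cKO library 3. Of all tested genes, 6119 of 16590, 1082 of 16552 and 1359 of 16345 were called in these fits, in that order. Without Ctrl library 4 or Sox2 cKO library 1 it called 0 pathway genes, and 26 and 8 of all tested genes. There 16 and 20 pathway genes had an unadjusted p below 0.05 and DESeq2 called 6 and 8. Ndst1, Gab1 and Nras lost their call in edgeR only without Ctrl library 4 (adjusted p = 0.0650, 0.0650 and 0.0689) or Sox2 cKO library 1 (0.0659, 0.0656 and 0.0667). Without these libraries the log2 fold change was -0.64 and -0.62 for Ndst1, -0.42 and -0.47 for Gab1 and -0.43 and -0.42 for Nras. Braf lost its call without Ctrl library 4 (edgeR adjusted p = 0.0769), Ctrl library 6 (0.0526) or Sox2 cKO library 1 (0.0762). Frs2 kept its call only without Ctrl library 2 (0.0132) or Sox2 cKO library 3 (0.0445), and Sulf2 only without Ctrl library 2 (0.00393) or Sox2 cKO library 5 (0.0273), in edgeR. Spred1, Araf, Hs6st1, Ext1 and Plcg1 kept theirs in edgeR only when Ctrl library 2 was the one left out (adjusted p = 0.00578, 0.00235, 0.00346, 0.0193 and 0.0162).

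**Figure D5:**
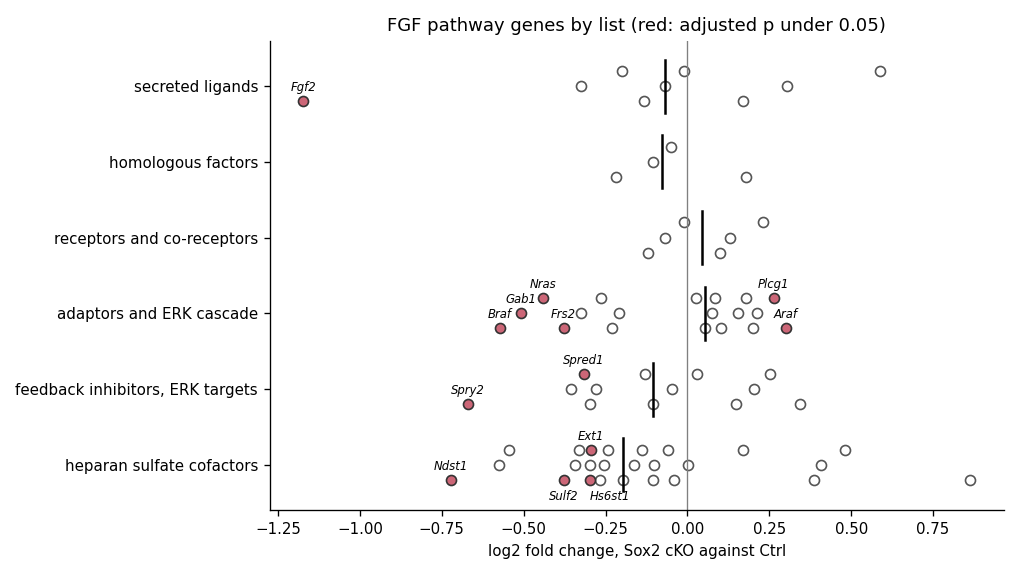
Log2 fold change in Sox2 cKO against Ctrl (horizontal axis) of the 76 tested FGF pathway genes in 6 lists, each point a gene, red where edgeR's adjusted p was below 0.05, with black lines at the list medians. Of the 13 red genes, 11 lie left of 0, from Fgf2 at -1.17 to Ext1 at -0.29, and Araf (0.30) and Plcg1 (0.26) lie right of it.

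Markers of some of the cell types that express FGF genes were read beside them, and their part in the results for Fgf2 and Spry2 was not tested. Of 12 astrocyte markers, 6 fell and 1, S100b, rose in edgeR, against 24.6% of all tested genes called, with a median log2 fold change of -0.31 against 0.02. After the length correction 3 were called lower (Gfap, Aqp4 and Slc4a4) and 0 higher, where 13.1% of all tested genes were called. Slc1a2 (-0.62 before and -0.21 after) lost its call, as did Aldh1l1, Slc1a3 and S100b (0.71 before and 0.47 after, adjusted p = 0.0615), which kept most of their fold change. Their summed CPM was 9872, 10333 and 11897 in Ctrl and 7709, 7741 and 8008 in Sox2 cKO. The most abundant of them, Gfap, fell by 1.11 on the log2 scale (edgeR adjusted p = 0.0102), and in edgeR lost its call without Sox2 cKO library 1 (0.0585), where it fell by 1.22 and 8 of all tested genes were called. DESeq2 called Gfap in all 6 fits without a library.

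Markers of oligodendrocyte precursors, which also express FGF receptors, included 4 of 6 genes that fell (Pdgfra, Cspg4, C1ql1 and Gpr17), against 12.4% of all tested genes called lower. After the length correction only C1ql1 (-0.62) and Gpr17 (-0.72) were called, against 13.1% of all tested genes. Pdgfra went from -0.37 to -0.13 (adjusted p = 0.238) and Cspg4 from -0.67 to -0.35 (0.0610). The summed CPM of the 6 markers was 331, 333 and 319.9 in Ctrl and 257, 260.0 and 266 in Sox2 cKO. The most abundant of them by FPKM, Sox10, had a log2 fold change of -0.22 (edgeR adjusted p = 0.152).

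Of 11 neuron markers, 1 (Stmn2) rose in edgeR, against 12.2% of all tested genes called higher. After the length correction Snap25 alone was called, higher, against 13.1% of all tested genes called. DESeq2 called 4 of the 11, against 27.7% of all genes with an adjusted p. Snap25, Stmn2 and Slc32a1 were higher and Nefm, the most abundant, was lower (-0.29, DESeq2 adjusted p = 0.0120). Groups did not overlap for Nefm, and the summed CPM overlapped, at 10101.5, 9555 and 10112.5 in Ctrl and 9795, 9827 and 10038 in Sox2 cKO. Of 5 ependymal markers, 2 fell, against 12.4% of all tested genes called lower. These were the most abundant, Foxj1 (-0.35, edgeR adjusted p = 0.0246), and Dnah5, which was not called after the length correction (adjusted p = 0.188). The ependymal sums were 51.6, 57.8 and 66.3 CPM in Ctrl and 46.8, 46.7 and 47.9 CPM in Sox2 cKO. Foxj1 kept its call in edgeR only when Ctrl library 2 was the library left out (adjusted p = 0.00343), and it was not called with limma.

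The lists for endothelial and mural cells and for meningeal fibroblasts had 0 of 7 and 0 of 6 genes called in edgeR and in DESeq2. Of all tested genes, edgeR called 24.6%, and DESeq2 called 27.7% of those with an adjusted p. In edgeR, 2 and 0 genes of these lists had an unadjusted p below 0.05. The most abundant genes of the lists were Rgs5 and Igf2. Single libraries stood apart in these lists. The endothelial and mural sum was 369 CPM in Sox2 cKO library 1 and 265 to 306 CPM in the others. The meningeal sum was 202 CPM in Ctrl library 6 and 432 to 572 CPM in the others. In these lists, 0 genes were at 0 in every library. Of 5 Hox genes that mark the position along the cord, 4 were tested. In edgeR and DESeq2, 0 of these 4 were called, against the same 24.6% and 27.7%. An unadjusted p below 0.05 was found for 1 of the 4 in edgeR. Hoxc8 was the most abundant of them and Hoxd10 had 0 counts in every library.

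The genes whose profile over the 6 libraries was most like that of Fgfr3 and Spry4 were sought among 10125 tested genes with a mean of at least 10 CPM. The measure was the root mean square difference of the log2 CPM profiles after each was centred on its own mean. For Fgfr3, whose own spread was 0.08, these were Eipr1 (0.0193), Alcam (0.0230), Golph3l (0.0230), Fam120b (0.0232) and Rassf5 (0.0234). For Spry4, with a spread of 0.11, they were Fbxo11 (0.0203), Napg (0.0203), Arhgef3 (0.0218), Dync1i1 (0.0281) and Pias4 (0.0291). None of these 10 genes was called in edgeR with all libraries, Alcam alone passed after the length correction (adjusted p = 0.0440), and like Fgfr3 and Spry4 they were lowest in Ctrl library 6. Because the genes were chosen for a like profile, their low value in this library and their lack of calls follow largely from the choice.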

How the data were processed

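Bulk RNA-seq libraries of whole spinal cord came from 6 mice, 3 in each group. According to the study's methods and the submitters' processing notes, the authors mapped reads to the mm10 genome using STAR 2.5 and counted them per gene using HTSeq 0.6.1, and the deposited counts are not normalized. The authors derived the deposited FPKM values from these counts with gene lengths and library totals. Recovered lengths were whole numbers (within 0.02 bases) for 24442 of 24442 genes with a count.

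Columns carry numbers, not sample names, and their groups follow the numbering of mice on a brain protein blot of the study, which assumes the same mice. Columns 2, 4 and 6 are Ctrl and columns 1, 3 and 5 Sox2 cKO. As a check, group means of normalized counts were compared with group means listed for 1999 genes: 1999 matched within a relative tolerance of 0.001, and 0 with the groups exchanged.

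The test of the counts was edgeR 4.0.16 in R 4.3.3 (filterByExpr, TMM, quasi-likelihood test, no covariates, Benjamini-Hochberg adjustment over all genes tested, threshold 0.05, biological coefficient of variation 0.119). Standard errors are the fold change divided by the root of the F statistic, and intervals are 95% confidence intervals. Alternatives were DESeq2 1.42.0, upper quartile normalization, all genes without the filter, only genes with 10 or more counts in each library, limma 3.58.1 on log2 FPKM (pseudocount 1 or 0.1, mean FPKM of at least 0.5), a lowess correction for gene length (span 0.3) in each library, and fits without each library in edgeR and DESeq2. The edgeR, DESeq2, upper quartile, length-corrected and limma fits were run on simulated counts with known differences first. Log2 ratios used counts plus 0.5 and an exact two-sided permutation test over 20 arrangements.

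Genes named are Sox2, the 10 members, pathway genes called by edgeR (at most 15), the most abundant gene by FPKM of each marker list reported, and the 5 genes most like Fgfr3 and Spry4 (mean of at least 10 CPM). Other names, 3 ratios (adjusted p = 0.1 over these 3) and the bins of length were chosen after values were seen. Of the 9 ratios of the design, 1 is not reported here, nor are 4 of the gene lists. The members and lists were chosen with earlier results of these data known. Positions are from GENCODE M21 (34490 of 35275 identifiers matched) and promoters from RefSeq (GRCm38), the build of mm10. Site coordinates were checked by 109 matches of listed sites to promoter sequences, which gave 1 shift between listed and genome positions. The sites shown lie outside the promoter windows of their genes, so their positions rest on that shift.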

Additional observations from a re-analysis of the deposited data

How the results depend on the processing

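Fgf2 and Spry2 were called lower, and no other FGF gene was called, in edgeR and under all 7 alternatives that kept every library. The log2 fold change of Fgf2, -1.17 in edgeR, was then -1.49 to -0.59, the smallest with limma on log2(FPKM + 1). Fits without a library, in edgeR and DESeq2, called 0 to 3 FGF genes (0 to 2 lower, 0 to 1 higher) and 0 to 33 pathway genes (0 to 23 lower, 0 to 10 higher). They called 8 to 6119 of all tested genes (5 to 3089 lower, 3 to 3030 higher). Where 0 FGF genes were called in edgeR, without Ctrl library 4 or Sox2 cKO library 1, 2 and 2 had an unadjusted p below 0.05 and DESeq2 called 1 and 2. With the length correction, 2109 genes were called (1128 lower, 981 higher), and 1 pathway gene was higher. DESeq2 called 17 pathway genes lower, against 2345 of the 15635 genes with an adjusted p. With limma on log2(FPKM + 1) and log2(FPKM + 0.1), 7 and 7 pathway genes were lower and 5 and 5 higher. Of all tested genes, 915 and 896 were then lower (25.5% and 25.5% of calls, against 50.6% in edgeR), and the median log2 fold change of all genes was 0.09 and 0.11, against 0.02. The cause was not tested.

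Over all 19 alternatives the log2 fold change was -0.20 to -0.02 for Fgfr2, 0.03 to 0.20 for Fgfr3, -0.18 to -0.03 for Fgf1, 0.08 to 0.28 for Fgf13 and 0.07 to 0.25 for Spry4. Some small fold changes turned their sign. Fgfr1 (-0.01) was 0.0344 with upper quartile normalization, 0.0882 and 0.0915 with limma, 0.13 with the length correction and -0.0719 to 0.0648 without a library. Fgfrl1 was 0.0273 and 0.0289, Fgf9 0.0263 and 0.0275, and Hoxc8 0.0406 and 0.0411 with limma. Hoxc8 was -0.18 to 0.0542 and Igf2 -0.0135 to 0.65 without a library, and Eipr1 was -0.13 with the length correction.

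No paired analysis was possible because the columns carry no replicate numbers. By the study's methods both groups were mixed in sex in the same proportion. The labels do not say which library is of which sex, and sex was not a covariate. With 3 mice in each group an exact permutation test cannot give p below 0.1. Fgf2 had 26 to 74 counts in a library, and its fold change is the least precise of the 10 (standard error 0.29). The libraries are of whole tissue, so no value belongs to 1 cell type, and protein, receptor activity and ligand release were not measured. The labels leave the age and the genotype of the controls in doubt.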
